A study of Mus musculus with 6 samples.

Results

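The collagen genes are the genes whose protein chains wind around each other in a helix and build most of the extracellular matrix. All rows of the expression table whose symbol has the form of a collagen chain name, such as Col1a1, were taken, which gave 27 genes of the 12969 in the table. They came from infarct tissue of male mice of about 12 weeks, collected on day 4 after the left anterior descending artery of the heart had been tied off for good. Values are RPKM, reads per kilobase of gene length scaled to the depth of the library. In the first group were 3 mice with the genotype IRF3-/-, whose strain the sources used here do not give, and in the second 3 wild-type mice of the strain C57BL/6. All 6 mice had an infarct, so no uninjured heart stands beside them. Nothing in the labels says more of how the animals of a group were related, so a p-value here speaks only of the spread among these 6 samples, which may be technical.

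Irf3 encodes a transcription factor that induces type I interferon after nucleic acid sensing. After an infarct, dead heart muscle is replaced by scar. Fibroblasts of the heart proliferate, become myofibroblasts and secrete fibrillar collagens of types I, III and V, which bear the tension of the scar. FACIT collagens sit on the surface of such fibrils, short-chain collagens form open networks around vessels and in provisional matrix, type IV collagen forms the sheets of basement membranes around muscle cells and vessels, and type VI collagen forms beaded filaments between cells. The comparison asks how the transcripts of these classes differ in the healing infarct of mice without Irf3.

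Depth and library quality bear on all values below. The 6 libraries held 14.8 M to 61.9 M reads in genes (M, mega), knockout replicate 3 being the deepest. Knockout replicate 2 stood apart, with a mean correlation with the other libraries of 0.907 against 0.941 to 0.966 for the rest, so values without it are given where leaving it out moves a result by over 1.5 times. Irf3 was read at 7.4, 8.74 and 7.68 RPKM in knockout mice against 13.76, 13.87 and 11.56 RPKM in wild-type mice, lower in every knockout library but not absent; which part of the gene was deleted the labels do not say.

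Of the 27 genes, 9 encode fibrillar chains, 5 type IV chains, 3 type VI chains, 4 FACIT chains, 2 short-chain chains and 2 multiplexins, and Col7a1 and Col28a1 belong to none of these. Chains of the transmembrane class, Col2a1, Col10a1 and other collagens outside the 27 are not analysed here. Averaged over the 6 libraries, 26 of the 27 reached 1 RPKM, and these entered the test, a limma fit across 12913 genes. Col28a1, at a mean of 0.845 RPKM, was the exception.

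Most collagen genes read lower in the knockout, and no single gene passed the test. Of the 26 tested, 23 had a log2 fold change below 0 on the log2(RPKM + 1) scale, where 59.3% of all genes did. Their median was -0.41, and the median of all genes was -0.09; without knockout replicate 2 these were -0.25 and 0.01. None of the 26 was called lower or higher at a Benjamini-Hochberg adjusted p under 0.05, while 0.356% of all genes were called lower and 0.147% higher. At an unadjusted p under 0.05, 6 of the 26 were lower and 0 higher, against 5.96% of all genes lower. In 12 of the 26, every knockout library lay below every wild-type library, against 11.8% of all genes, and in none did every knockout library lie above, against 6.61% of all genes. Overlap of the groups was judged throughout on RPKM as deposited, without scaling. Dividing each library by a median-of-ratios factor moved the median of all genes by 0.10, to 0.02, and left 19 collagen genes below 0, beside 48.4% of all genes, with a median of -0.30. Relative to all genes the collagen median was -0.32 under either scaling. Weights for each library, estimated with limma, changed the count of calls: 11 of the 26 were then called lower, beside 13.6% of all genes. Those weights ran from 0.103 for knockout replicate 2 to 6.355 for knockout replicate 3 and 4.402 for wild-type replicate 2, so that this fit gave most weight to the last 2 of these libraries.

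**Figure D1:**
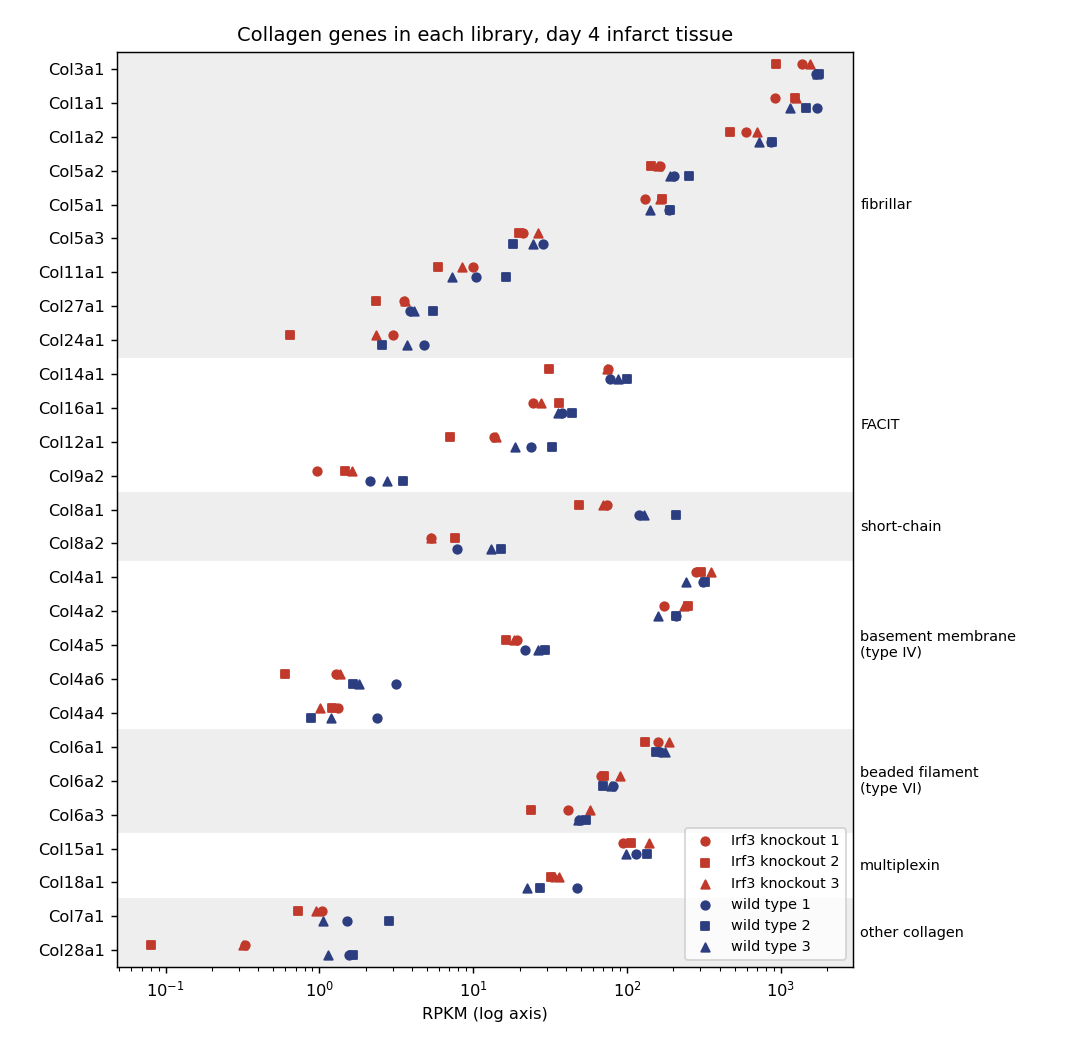
RPKM (log axis) of the 27 collagen genes, grouped by class, with each point 1 library: red for the Irf3 knockout, blue for the wild type, and the marker shape giving the replicate number. The short-chain genes and Col12a1 separate by genotype, while Col4a1, Col4a2 and the type VI and multiplexin genes overlap.

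The classes were not alike. The medians of the log2 fold changes were -1.02 for the short-chain genes, -0.66 for the FACIT genes and -0.41 for the fibrillar genes. They were -0.14 for type IV, -0.06 for type VI and 0.04 for the multiplexins. Without knockout replicate 2 the same medians were -1.01, -0.64, -0.26, -0.15, 0.03 and 0.08. The short-chain and FACIT medians thus moved little, and that of the fibrillar genes shrank by more than 1.5 times. Within the short-chain and FACIT classes, however, single genes moved in opposite directions, as given below. No test was made of the difference between classes.

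**Figure D2:**
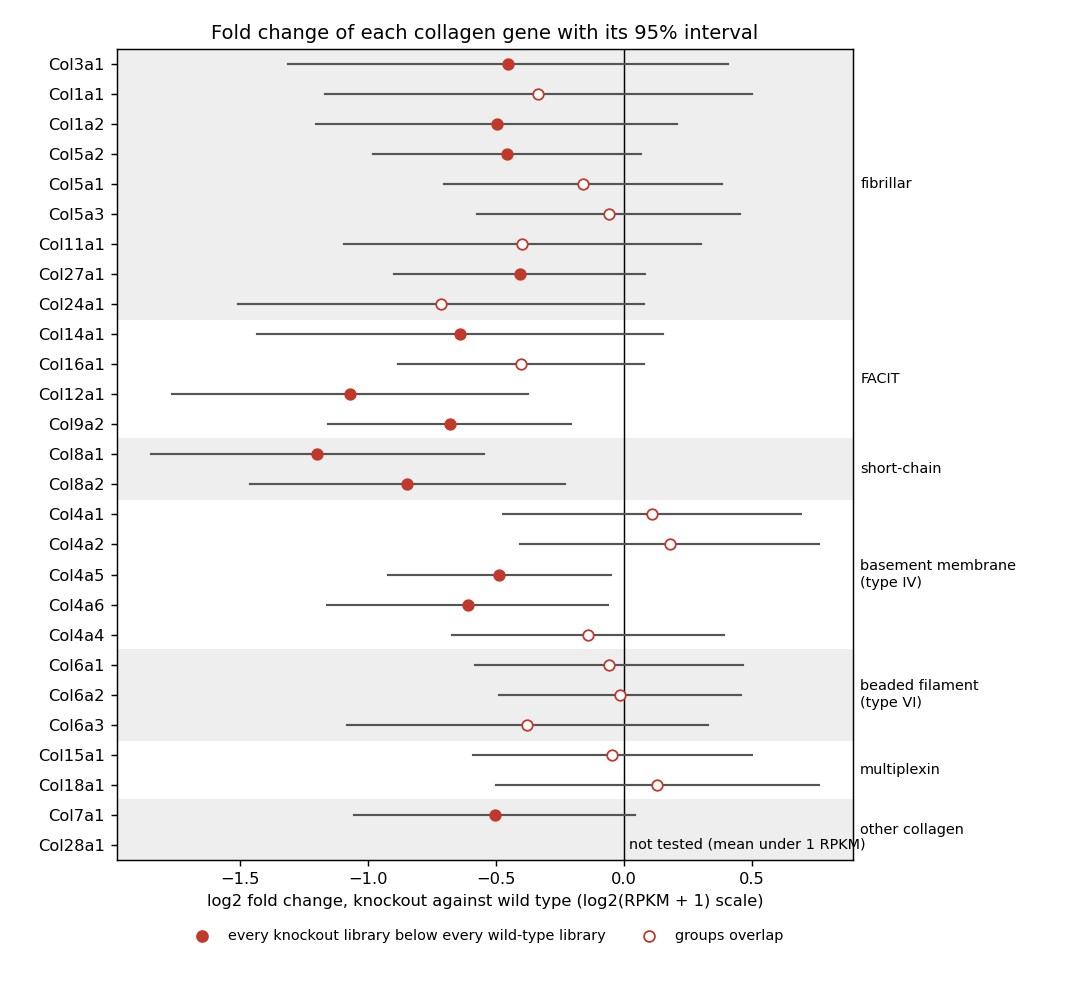
Log2 fold change of each collagen gene, knockout against wild type, with the 95% interval from the limma fit. Filled points mark genes whose knockout libraries all lay below the wild-type libraries in unscaled RPKM. The 12 filled points include both short-chain genes and 3 of 4 FACIT genes, and none of the type VI or multiplexin genes.

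The short-chain genes Col8a1 and Col8a2 encode type VIII collagen, a network collagen of vessel walls that is deposited during tissue remodelling. They had the lowest median of any class, so the sequence before their start sites is shown. Windows from RefSeq, with GRCm38.p6 coordinates, were matched for 23 of the 27 genes, all but Col1a1, Col5a2, Col12a1 and Col14a1. The 250 bases before the start of Col8a1 lie on the minus strand at chr16:57754738-57754987, and those of Col8a2 on the plus strand at chr4:126286544-126286793; neither overlaps an annotated gene. Capitals mark matches to the motifs searched on both strands: the IRF core AANNGAAA, to which interferon regulatory factors bind, the CCAAT box CCAAT, the GC box GGGCGG, the TATA box TATAAA and the AP-1 site TGANTCA.
Col8a1: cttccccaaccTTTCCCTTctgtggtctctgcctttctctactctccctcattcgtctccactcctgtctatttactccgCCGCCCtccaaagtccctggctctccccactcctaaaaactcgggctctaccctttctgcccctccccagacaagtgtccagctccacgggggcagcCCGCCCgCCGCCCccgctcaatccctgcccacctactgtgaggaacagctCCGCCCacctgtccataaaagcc
Col8a2: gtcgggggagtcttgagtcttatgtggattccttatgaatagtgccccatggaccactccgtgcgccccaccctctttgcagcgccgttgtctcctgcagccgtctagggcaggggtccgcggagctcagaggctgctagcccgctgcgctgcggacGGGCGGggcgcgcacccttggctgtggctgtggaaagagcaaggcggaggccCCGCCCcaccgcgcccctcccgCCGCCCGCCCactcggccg
The Col8a1 window held 1 match to the IRF core, 239 bases before the start and on the other strand, and 4 GC boxes. The Col8a2 window held 4 GC boxes, of which 2 overlap, and no match to the IRF core. The IRF core was found in 4 of the 23 collagen genes (Col8a1, Col11a1, Col6a1 and Col6a3) and in 21.3% of all 32851 windows of this length. The collagen counts are by gene, in any of its windows, and the percentages by window, without regard to expression, so they are not like for like. GC boxes were found in 15 of 23 against 32.7%, CCAAT boxes in 9 of 23 against 33.8%, a TATA box in Col3a1 alone against 12.4%, and an AP-1 site in Col6a1 alone against 6.7%. A match describes these letters and is no evidence of binding.

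In the knockout Col8a1 stood at 73.85, 49.04 and 69.81 RPKM, against 118.79, 206.79 and 128.07 RPKM in the wild type. Every knockout library was lower, at a ratio of means of 0.425, and wild-type replicate 2 was the highest of the 6 libraries. The log2 fold change was -1.20 ± 0.28 (SE, n = 3 per group; limma adjusted p = 0.204), the largest among the tested collagens, and its unadjusted p was 0.00271. Col8a2, its partner chain, stood at 5.3, 7.66 and 5.35 RPKM against 7.87, 15.14 and 13.12 RPKM. The groups did not overlap, although knockout replicate 2 came close to wild-type replicate 1, and the log2 fold change was -0.85 ± 0.27 (adjusted p = 0.462). The median-of-ratios factors were 0.818 for knockout replicate 2 and 1.084 for wild-type replicate 1. Divided by them, the former lay above the latter for Col8a2, and the groups overlapped. Without knockout replicate 2 the values were -1.02 ± 0.27 for Col8a1 and -0.999 ± 0.252 for Col8a2 (limma adjusted p = 0.314 and 0.281).

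FACIT collagens, which decorate fibrils and set their spacing, were lower for all 4 genes. Col12a1, whose type XII collagen bridges fibrils in tissue under load, stood at 13.64, 7.06 and 14.02 RPKM in knockout mice against 23.83, 32.41 and 18.77 RPKM in wild-type mice. Its groups did not overlap, and its log2 fold change of -1.07 ± 0.30 (limma adjusted p = 0.37) was the second lowest of the tested collagens. It was -0.78 ± 0.22 without knockout replicate 2, the lowest library. Col14a1, which encodes type XIV collagen, a regulator of fibril growth, read 74.84, 31.2 and 74.2 RPKM against 77.05, 100.51 and 86.97 RPKM. Here knockout replicate 2 alone was far below, and the log2 fold change went from -0.64 ± 0.35 (adjusted p = 0.556) to -0.23 ± 0.18 without it. The Col14a1 groups did not overlap in RPKM. Divided by their median-of-ratios factors of 1.024 and 1.084, knockout replicate 3 lay above wild-type replicate 1. Col16a1, a minor FACIT chain, read 24.63, 36.3 and 27.72 RPKM against 37.57, 43.74 and 35.75 RPKM. The order was reversed for that gene: knockout replicate 2 was the highest knockout library and the only one to overlap the wild type. Its log2 fold change was -0.40 ± 0.21 with that library and -0.56 ± 0.16 without (adjusted p = 0.556 and 0.355).

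Col9a2, a chain of type IX collagen best known from cartilage, was read at 0.96, 1.46 and 1.64 RPKM against 2.12, 3.5 and 2.75 RPKM. These levels stood on 44 to 314 reads per library, and the groups did not overlap (log2 fold change -0.68 ± 0.21, limma adjusted p = 0.434). Acan, the cartilage proteoglycan aggrecan, stood at 0.46, 0.24 and 0.55 RPKM against 2.79, 4.09 and 1.19 RPKM. Every knockout library was below the minimum of 1 RPKM that the mean had to reach, so that Acan was tested only through its wild-type level, and no fold change is given. Of the 10 cartilage and bone markers 4 were in the table. Besides Acan these were Comp, Runx2 and Sox9, each with a value below 0, beside 59.3% of all genes, and each with overlap. Comp stood at 6.02, 18.72 and 8.8 RPKM against 16.78, 20.75 and 12.46 RPKM, and overlapped through knockout replicate 2 alone. Its log2 fold change was -0.65 ± 0.37, and -1.06 ± 0.24 without that library (limma adjusted p = 0.556 and 0.192). The summed level of all 4 markers was 15.46 to 26.36 RPKM in the knockout and 24.25 to 36.86 RPKM in the wild type. Knockout replicate 2 held the 26.36 RPKM, and knockout replicates 1 and 3, at 15.46 and 20.75 RPKM, lay below the wild type.

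Fibrillar collagens made up most of the collagen transcripts in every library, and none of the 9 passed the test. Col3a1, the chain of type III collagen that dominates early scar, stood at 1376, 933.4 and 1549 RPKM in knockout mice against 1687, 1780 and 1706 RPKM in wild-type mice. It ranked 13 of all 12969 genes by its wild-type mean. The wild-type libraries were close together and all above the knockout, whose spread was wider (SD 317.6 against 49.1 RPKM). The log2 fold change was -0.45 ± 0.37 (limma adjusted p = 0.588), and -0.24 ± 0.38 without knockout replicate 2. Col1a1, the main chain of type I collagen, stood at 917.8, 1242 and 1258 RPKM against 1729, 1462 and 1141 RPKM. Here the groups overlapped, wild-type replicate 3 lying below knockout replicates 2 and 3 (log2 fold change -0.34 ± 0.36, adjusted p = 0.662). Col1a2, its partner chain, stood at 590.3, 467.9 and 703.3 RPKM against 869.1, 871.6 and 723.3 RPKM. The groups came close but did not overlap (log2 fold change -0.50 ± 0.31, adjusted p = 0.556).

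Type V collagen starts fibrils and limits their width. Col5a2 stood at 163.2, 142.7 and 159.9 RPKM against 200.8, 254.3 and 189.6 RPKM, with no overlap (log2 fold change -0.46 ± 0.23, limma adjusted p = 0.556). Its partner Col5a1 overlapped, at 154 ± 21 against 173 ± 26.9 RPKM (SD, n = 3 per group), as did Col5a3 at 22.4 ± 3.43 against 23.6 ± 5.20 RPKM. Among the rarer fibrillar chains, Col27a1 was lower in every knockout library (3.15 ± 0.722 against 4.50 ± 0.851 RPKM), its log2 fold change of -0.41 being -0.26 without knockout replicate 2. Col11a1 was at 8.10 ± 2.02 against 11.3 ± 4.61 RPKM and Col24a1 at 1.99 ± 1.21 against 3.68 ± 1.11 RPKM, both with overlap. In Col24a1 knockout replicate 2 stood at 0.64 RPKM, and its log2 fold change of -0.72 ± 0.35 became -0.33 ± 0.22 without that library.

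Type IV collagens are described by gene pair. Chains of this class lie side by side in the genome in head-to-head pairs that are read in opposite directions. Col4a1 and Col4a2, on chromosome 8, encode the chains found in nearly all basement membranes, and their RefSeq starts are 21 bases apart. Col4a1 stood at 282.7, 303 and 353.5 RPKM in knockout mice against 313.6, 319.3 and 240.4 RPKM in wild-type mice, and Col4a2 at 173.5, 248.1 and 235.2 against 209.6, 209.3 and 159.1 RPKM. Both overlapped, and their log2 fold changes were 0.11 ± 0.25 and 0.18 ± 0.25 (limma adjusted p = 0.841 and 0.738), with 95% intervals from -0.47 to 0.69 and from -0.41 to 0.76. Col4a5 and Col4a6, the pair on chromosome X, whose starts are 1343 bases apart, were both lower in every knockout library. Col4a5 stood at 19.34, 16.26 and 18.53 RPKM against 21.86, 29.11 and 26.55 RPKM, and Col4a6 at 1.29, 0.6 and 1.37 against 3.13, 1.66 and 1.82 RPKM. The log2 fold changes were -0.49 ± 0.19 and -0.61 ± 0.24 (adjusted p = 0.556 each), and -0.42 ± 0.16 and -0.43 ± 0.21 without knockout replicate 2. Col4a4, a chain best known from the kidney, was near 1 RPKM in both groups (1.18 ± 0.161 against 1.48 ± 0.781 RPKM). The difference between the pairs was not tested.

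Type VI collagen and the multiplexins did not separate the genotypes. Col6a1 stood at 158.6, 131.5 and 187.4 RPKM against 163.4, 154.6 and 175.2 RPKM, and Col6a2, its neighbour on chromosome 10, at 67.59, 70.96 and 90 against 81.35, 69.4 and 79 RPKM. The fitted differences in log2 were -0.06 ± 0.23 and -0.02 ± 0.21 (limma adjusted p = 0.903 and 0.972), and they turned to 0.06 and 0.11 after median-of-ratios scaling. Their 95% intervals ran from -0.58 to 0.46 and from -0.49 to 0.46, so that differences of that size cannot be told from 0 here. Col6a3, their longer partner, was at 40.9 ± 17 against 50.4 ± 3.31 RPKM, with knockout replicate 2 at 23.69 RPKM. Its log2 fold change was -0.38 ± 0.31, and -0.04 ± 0.19 without that library. Col15a1 and Col18a1 encode multiplexins, basement membrane proteoglycans whose ends can be cleaved to restin and endostatin. Col15a1 stood at 94.56, 106 and 138 RPKM against 114.6, 134.9 and 98.63 RPKM, and Col18a1 at 32.56, 31.9 and 36.31 against 46.93, 26.98 and 22.48 RPKM. Both overlapped (log2 fold changes -0.05 ± 0.24 and 0.13 ± 0.28, adjusted p = 0.927 and 0.825), Col15a1 at 0.08 after the same scaling.

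The 2 remaining genes were rare. Col7a1, the chain of anchoring fibrils known from skin, was at 1.04, 0.73 and 0.95 RPKM against 1.51, 2.82 and 1.06 RPKM. Its knockout mean of 0.907 RPKM was under the minimum, so that it was tested only through its wild-type level. No fold change is quoted for it. The 23 genes below 0, the 12 without overlap and the 11 called with library weights all include Col7a1. Col28a1, whose type XXVIII collagen is known from the sheaths of peripheral nerves, was read at 0.33, 0.08 and 0.32 RPKM against 1.55, 1.66 and 1.13 RPKM. That is about 24, 7 and 97 reads against 143, 169 and 87 reads, and a ratio of means of 0.168, the lowest of all 27. It was under the filter and therefore outside the main test. With every gene of the table tested, its log2 fold change was -0.98 ± 0.17 (limma adjusted p = 0.0586). Every knockout value was smaller than the 1 RPKM added before the log, so that this fold change is not like for like with the ratio of means.

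The make-up of the collagen transcripts was then compared between the groups. Collagen genes took 3.51%, 3.19% and 4.21% of the reads in genes in the knockout and 4.89%, 4.93% and 4.18% in the wild type, so that knockout replicate 3 and wild-type replicate 3 were alike. Their summed level was 4283, 4051 and 5187 RPKM against 5996, 6006 and 5081 RPKM. Within that sum type IV held 11.2%, 14.1% and 11.8% in the knockout and 9.18%, 9.33% and 8.44% in the wild type, higher in every knockout library. The type IV level itself overlapped, at 478, 569 and 610 RPKM against 551, 560 and 429 RPKM. A share also rises when the other types are lower. Type VIII held 1.85%, 1.40% and 1.45% against 2.11%, 3.69% and 2.78%, and types I and III together 67.3%, 65.3% and 67.7% against 71.5%, 68.5% and 70.3%, both lower in every knockout library. Type VI held 6.25%, 5.58% and 6.46% against 4.90%, 4.63% and 5.95%, with overlap. These shares are ratios within a library, unaffected by scaling between libraries but dependent on the gene lengths in the table, and were not tested.

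**Figure D3:**
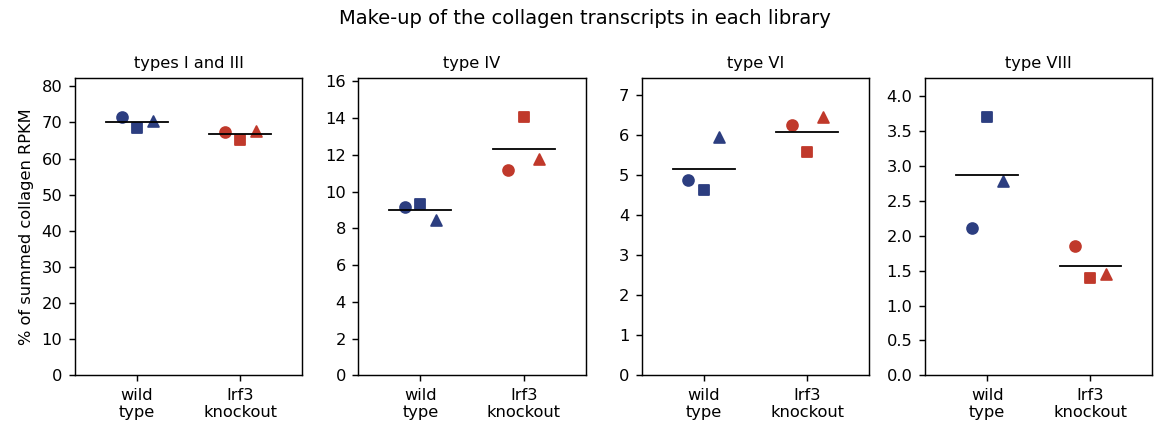
Share of the summed collagen RPKM (%) held by types I and III (Col1a1, Col1a2 and Col3a1), IV, VI and VIII, with each point 1 library (red, Irf3 knockout; blue, wild type; shape, replicate number) and the bar the group mean. Type IV lies between 11.2% and 14.1% in the knockout and between 8.44% and 9.33% in the wild type, while its summed RPKM overlaps between the groups.

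Chains that assemble together were then compared as ratios within each library. Over 8 pairs, an exact two-sided permutation test gave no p below 0.1, the smallest that 3 against 3 can give, so the design cannot pass the threshold (lowest adjusted p = 0.8 over the 8 pairs). The pair at p = 0.1 in this exact test was Col5a1/Col1a1, at 0.142, 0.136 and 0.130 in the knockout and 0.108, 0.129 and 0.124 in the wild type, higher in every knockout library by 0.17 in log2 on average. Col4a1/Col4a2 was 1.497, 1.526 and 1.511 in the wild type, close together, and 1.63, 1.222 and 1.503 in the knockout. Col3a1/Col1a1 was 1.499, 0.751 and 1.23 in the knockout and 0.976, 1.217 and 1.496 in the wild type, and Col8a1/Col8a2 was 13.9, 6.40 and 13.05 against 15.1, 13.7 and 9.76. Knockout replicate 2 held the highest or lowest of the 6 values in every pair but Col5a1/Col1a1, among them Col1a1/Col1a2 at 2.66.

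**Figure D4:**
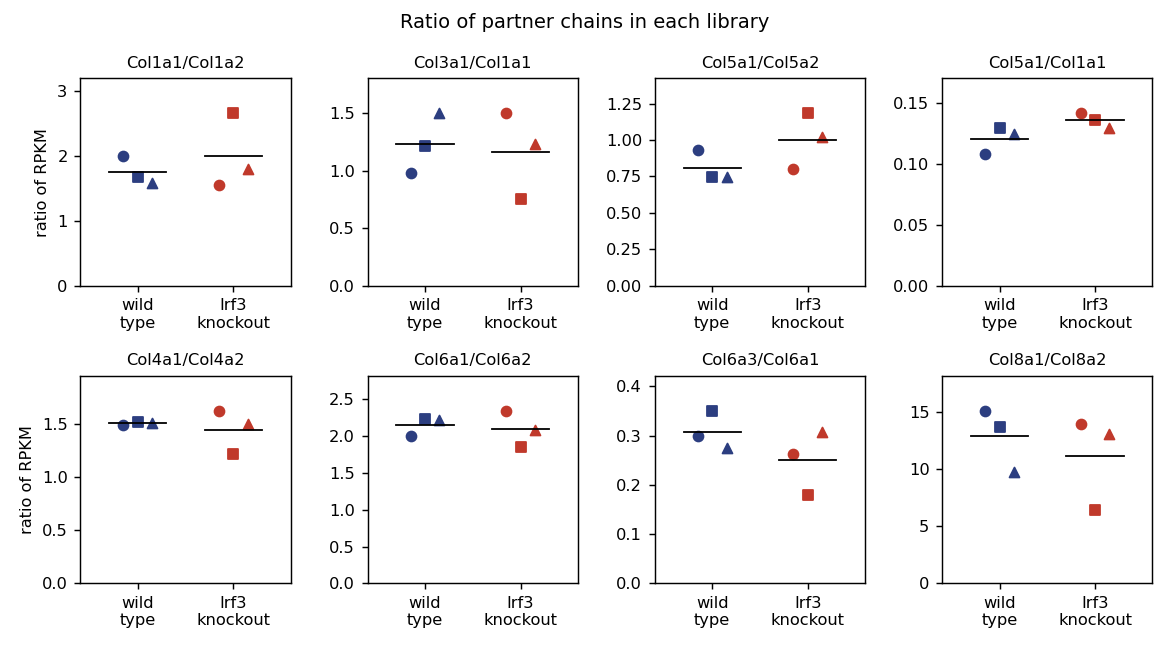
Ratio of RPKM of 8 partner-chain pairs in each library (red, Irf3 knockout; blue, wild type; shape, replicate number), with a bar at the group mean. The squares on the knockout side, replicate 2, lie at the edge of most panels, and Col4a1/Col4a2 is nearly constant in the wild type.

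A ratio between chains also depends on the gene length that the table uses. For Col1a2 the table has 12145 bases, 2.27 times the longest GENCODE coding transcript of 5348 bases, and for Col1a1 6563 bases, 1.11 times. By the table's lengths Col1a1/Col1a2 was 1.99, 1.68 and 1.58 in the wild type, and by the transcript lengths, chosen after seeing the data, 0.969, 0.818 and 0.768. In the knockout they were 0.758, 1.29 and 0.872 by the transcript lengths. Which chain reads higher thus turns with the length in every library but knockout replicate 2, while the difference between genotypes on the log scale does not depend on it. Col6a2 (1.79 times), Col27a1 (1.71 times) and Col3a1 (1.51 times) are also longer in the table than in that transcript.

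Most genes that make and bind collagen also had values below 0. Of 30 genes listed for collagen biosynthesis and assembly 28 were tested and 27 had a log2 fold change below 0, beside 59.3% of all genes. None was called, and 7 had an unadjusted limma p under 0.05, all lower, beside 5.96% of all genes lower. The list's median was -0.27, and -0.30 without knockout replicate 2. Lox, which oxidises lysines to crosslink fibrils, stood at 86.72, 57.32 and 84.8 RPKM against 145.5, 172.7 and 118.5 RPKM. Plod2, which hydroxylates the lysines used for stable crosslinks, stood at 34.14, 13.56 and 27.04 against 46.3, 54.83 and 46.51 RPKM, and P4ha3, a prolyl hydroxylase subunit, at 9.42, 6.29 and 8.44 against 18.26, 19.05 and 10.79 RPKM. In all 3 the groups did not overlap (log2 fold changes -0.93 ± 0.25, -1.04 ± 0.32 and -0.89 ± 0.26; limma adjusted p = 0.339, 0.436 and 0.404). Without knockout replicate 2 the value for Plod2 was -0.67 ± 0.17. Serpinh1, the chaperone of procollagen, was at 644.1, 709.8 and 731 RPKM against 902.8, 884.7 and 619.4 RPKM, with overlap. Of 12 collagen receptors and uptake genes 9 were tested, 7 were below 0 and 0 had an unadjusted p under 0.05, the integrin genes Itga1 and Itga11 being at -0.82 ± 0.38 and -0.48 ± 0.23 and Lair1, an inhibitory receptor of leukocytes, at -0.87 ± 0.42 (adjusted p = 0.556 each). Knockout replicate 2 was the lowest library for Itga1 and Lair1, at 3.05 and 3.29 RPKM. Without it Itga1 was at -0.35 ± 0.19 and Lair1 at -0.41 ± 0.28, and the median of the receptor list went from -0.42 to -0.12.

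No cell type marker was called, and of the lists below only the fibroblast sums did not overlap between the groups. The 12 fibroblast markers, all in the table, summed to 1047 to 1666 RPKM in the knockout and to 1714 to 2389 RPKM in the wild type. That gap rested on Postn, at 350, 174 and 293 RPKM in the knockout against 412, 858 and 711 RPKM. Without Postn the fibroblast sums overlapped. Of the 12 markers, 10 had values below 0, beside 59.3% of all genes, and Lum and Gsn were above 0. The median of the 12 was -0.62, and -0.29 without knockout replicate 2. In bulk tissue fewer cells of a type and less RNA per cell cannot be told apart. The 12 cardiomyocyte markers summed to 16176 to 24826 RPKM against 7421 to 20709 RPKM, with 12 of 12 above 0, where 59.3% of all genes were below 0. Their sums in wild-type replicates 1 to 3 were 7421, 14151 and 20709 RPKM. Wild-type replicate 1 was thus the lowest of the 6 libraries, and wild-type replicate 3 lay above knockout replicates 1 and 3. The 12 macrophage markers summed to 2209 to 5758 RPKM against 3378 to 6160 RPKM, with knockout replicate 2 the lowest. The 10 mesothelial and epicardial markers summed to 35.59 to 89.57 RPKM against 67.98 to 220.5 RPKM, all 10 below 0, beside 59.3% of all genes. These 10 include Muc16, at 2.02, 0.11 and 0.81 RPKM in the knockout against 8.29, 1.3 and 4.3 RPKM in the wild type. The knockout mean of Muc16 was under the minimum of 1 RPKM, so that it was tested only through its wild-type level. The median was -0.40 for the macrophage markers and -0.91 for the mesothelial and epicardial markers, and without knockout replicate 2 it was -0.10 and -0.65. Endothelial markers (10 of 10 in the table) summed to 266.4 to 371.7 RPKM against 291.4 to 461.4 RPKM, smooth muscle and pericyte markers (9 of 9) to 667.9 to 822.4 RPKM against 754.9 to 1193 RPKM, and neutrophil markers (5 of 7) to 42.28 to 58.85 RPKM against 35.21 to 95.09 RPKM. No marker in the table was at 0 in any library. The part of these markers in the collagen values was not tested.

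**Figure D5:**
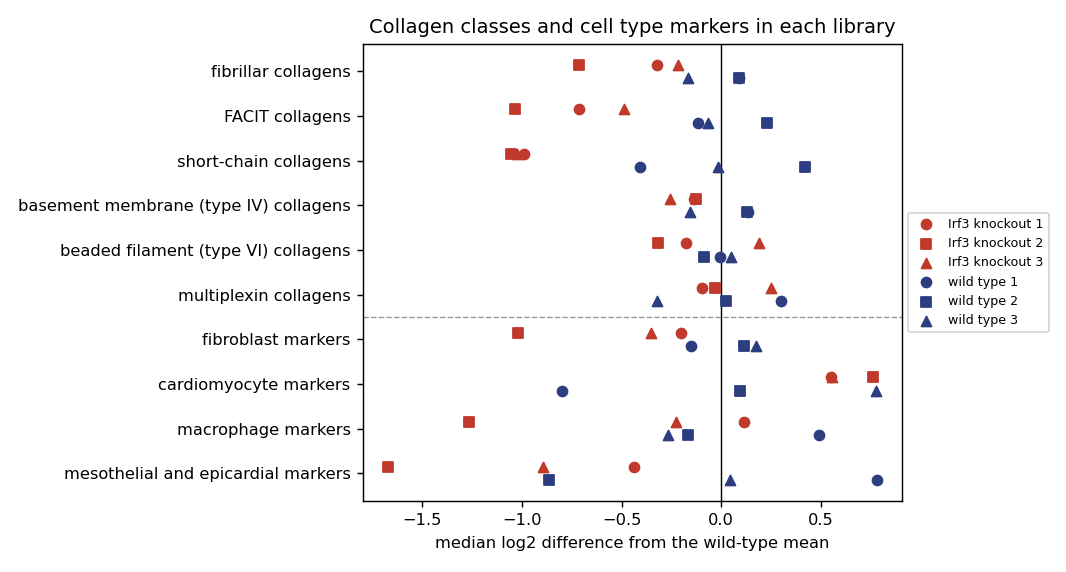
Median log2 difference from the wild-type mean, on the log2(RPKM + 1) scale, of the tested genes of each collagen class and of 4 cell type marker lists, with each point 1 library (red, Irf3 knockout; blue, wild type; shape, replicate number). The median of the 2 short-chain genes lies near -1 in all 3 knockout libraries, while in the fibrillar, FACIT and fibroblast lists knockout replicate 2 lies below the other 2.

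By library, the median of the 26 collagen genes relative to the wild-type mean was -0.30, -0.59 and -0.24 in knockout replicates 1 to 3 and -0.02, 0.14 and -0.14 in wild-type replicates 1 to 3. Of all 27 genes, 15 had their lowest value in knockout replicate 2 and 7 in knockout replicate 1, and 15 had their highest value in wild-type replicate 2. The median of the 2 short-chain genes was -0.99, -1.05 and -1.03 in the 3 knockout libraries, but the genes themselves went opposite ways in knockout replicate 2, where Col8a1 stood at 0.324 of its wild-type mean, the lowest of the 6 libraries, and Col8a2 at 0.636, the highest of the knockout libraries. Without knockout replicate 2, 20 of the 26 were below 0, beside 47.9% of all genes, and 13 lay below every wild-type library in both remaining knockout libraries, beside 13.1% of all genes. Of genes not yet given without that library, Col11a1 went from -0.40 to -0.22, Col4a2 from 0.18 to 0.08 and Col15a1 from -0.05 to -0.01, while Col6a1, Col6a2 and Col5a3 went from -0.06, -0.02 and -0.06 to 0.07, 0.03 and 0.02. Genes whose groups did not overlap were found at all levels. They made up 4 of the 10 collagens over 100 RPKM, where 6.54% of all genes in the table had every knockout library below the wild type. They made up 3 of the 8 between 10 and 100 RPKM, beside 8.17% of all genes, and 6 of the 9 under 10 RPKM, Col28a1 included, beside 15.4% of all genes.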

How the data were processed

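RNA-seq of 6 infarcts was analysed from RPKM values that the authors deposited, rounded to 2 decimals, with a gene length for each row. The submitters' processing notes name STAR 2.3.0, SAMtools 0.1.18.0, Picard 1.100, HTSeq 0.6.0 and edgeR 3.8.6, on NCBIM37 (mm9). Settings, strand and annotation: not given in the sources used here. Columns were matched to samples by name, and 5 rows with a displaced name were repaired. Depth came from the steps between low values, 100% of which lay within 0.2 reads of a whole number.

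For genes averaging 1 RPKM or more, log2(RPKM + 1) values were fitted in R 4.3.3 by limma 3.58.1 (mean-variance trend, two-sided), with Benjamini-Hochberg adjustment across all genes and a threshold of 0.05. Transcript lengths came from GENCODE and sequences from RefSeq, both on GRCm38 and used only for lengths, gene order and promoter windows. Chain ratios were tested by exact permutation with SciPy 1.17.1. The fit was checked on simulated data. Genes, classes, pathway lists and marker lists were chosen with earlier results of these data known. Values in every library are given for Col1a1, Col1a2 and Col3a1, the 2 most abundant genes of each class and the 5 with the smallest p. Col5a2, Col4a6, Acan, Comp, Adamts3, Muc16 and Postn were added after their values were seen. Of the pathway lists the 3 genes with the smallest p are named, and Serpinh1 was added. Alternatives were another pseudocount, filter, scaling or variance model, library weights (limma's gene-by-gene method), a replicate block and leaving out each library. Same-numbered libraries were not treated as paired. The choice of the gene-by-gene method, after the default did not converge, was made after seeing the data.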

Additional observations from a re-analysis of the deposited data

How the results depend on the processing

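Col28a1, Col9a2, Col4a6 and Col24a1 stand on under 100 reads in at least 1 library, and 3 samples per group limit every comparison. All 65 genes called became 34 with a minimum of 5 RPKM, 2960 with array weights, 250 with the replicate block and 21 to 96 when 1 library was left out (26 without knockout replicate 3, and 31, 30 and 21 without wild-type replicates 1, 2 and 3). Of the collagen genes 0 were called, 0 when any 1 library was left out, 11 with array weights and 1 with the replicate block (Col8a1, -1.20). Deviations of same-numbered libraries correlated at 0.129, -0.098 and -0.102, within the -0.212 to 0.19 of differently numbered libraries. With 3 libraries per group these correlations cannot tell whether the numbers mark pairs. The type IV median of -0.14 was 0.11 with a minimum of 5 RPKM, 0.034 with array weights, and -0.32 to 0.10 when a library was left out. The medians of all collagen genes and of the fibrillar, FACIT and short-chain classes kept their sign in the alternatives run, from -0.24 (array weights) to -0.49 (without knockout replicate 1) for all collagen genes and from -0.81 (without wild-type replicate 2) to -1.32 (array weights) for the short-chain class.

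Signs turned for some collagen genes. With median-of-ratios scaling, Col6a1, Col15a1, Col6a2 and Col5a3 were at 0.064, 0.077, 0.107 and 0.059, and with array weights at 0.204, 0.038, 0.267 and 0.363, with Col6a3 at 0.042 and Col4a4 at 0.034. With a library left out, Col4a1 ranged from -0.022 to 0.18, Col6a1 from -0.18 to 0.070, Col15a1 from -0.20 to 0.070, Col6a2 from -0.14 to 0.064, Col18a1 from -0.085 to 0.43, Col5a3 from -0.23 to 0.080 and Col4a4 from -0.32 to 0.10. The log2 difference of Col1a1/Col1a2 then ranged from -0.061 to 0.33, Col3a1/Col1a1 from -0.33 to 0.17, Col4a1/Col4a2 from -0.16 to 0.051, Col6a1/Col6a2 from -0.13 to 0.041 and Col8a1/Col8a2 from -0.47 to 0.095. The collagens called with array weights were Col8a1, Col8a2, Col12a1, Col9a2, Col4a5, Col14a1, Col16a1, Col5a2, Col11a1, Col27a1 and Col7a1, the last tested only through its wild-type level. The cause of these changes was not tested.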
